A study of Rattus norvegicus with 8 samples.

Results

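Cytokines are secreted proteins through which immune cells, glia and neurons signal to each other, and chemokines are the cytokines that direct cell migration. The set described here holds 10 genes, namely the cytokines Il1b, Il6, Tnf, Il18, Il33 and Tgfb1, the chemokines Ccl2, Cxcl12 and Cx3cl1, and the interleukin-1 receptor Il1r1. Members were the probes other than control probes whose gene name in the array files was one of these 10. They numbered 11 of the 30367 probes, since Cxcl12 had 2, and 10 of 26514 gene names.

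The measurement was mRNA in the lumbar (L6S1) spinal cord of male Wistar rats, 12 weeks old, with 1 single-colour Agilent 60-mer array for each rat. The stressed group was 4 rats placed for 10 consecutive days on a small platform surrounded by water (water avoidance, or WA, stress, a psychological stressor that is used as a model of visceral hyperalgesia), with tissue taken 24 h after the last session. The control group was 4 rats without WA stress, and the 2 groups differed in no other label. The cord was flushed out with saline, and the meninges were taken off before RNA was isolated.

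In the spinal cord, IL-1β, TNF and IL-6 are known mainly as products of activated microglia and astrocytes, and they can raise the excitability of dorsal horn neurons. IL-18 and IL-33 belong to the IL-1 family, with IL-18 cut to its active form by caspase-1 and IL-33 released from the nuclei of damaged or stressed cells. TGF-β1 is largely anti-inflammatory and keeps microglia in their resting state. CCL2 attracts monocytes through CCR2, CXCL12 acts through CXCR4 and is made by meningeal, endothelial and neural cells, and CX3CL1 (fractalkine) passes from neurons to the receptor CX3CR1 on microglia.

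For the 4 genes below, the sequence of the probe is shown. Each probe is given 5′ to 3′ on the transcript strand as the array files list it, in lower case, with no base marked.

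Tgfb1: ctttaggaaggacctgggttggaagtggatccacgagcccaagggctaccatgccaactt
Il18: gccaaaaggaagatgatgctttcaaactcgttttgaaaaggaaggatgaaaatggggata
Il6: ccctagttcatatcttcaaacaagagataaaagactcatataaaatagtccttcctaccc
Il1r1: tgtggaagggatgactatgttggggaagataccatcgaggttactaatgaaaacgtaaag

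On rat genome build rn4, the Tgfb1 probe lies at chr1:80910123-80910182, plus strand, at position 1047 of its transcript and within the coding sequence of the mature ligand. The Il18 probe lies at chr8:53943005-53943064, plus strand, at position 484 of its transcript. The Il6 probe at chr4:457279-458563, minus strand, and the Il1r1 probe at chr9:39472634-39473165, plus strand, span 1285 and 532 bases of genome for 60 bases of probe, so both cross an exon junction. The remaining probes were Il1b at position 1211 of its transcript on chromosome 3, Tnf at 1626 on chromosome 20, Il33 at 1907 on chromosome 1, Ccl2 at 637 on chromosome 10, Cxcl12 at 1783 and at 5204 on chromosome 4, and Cx3cl1 at 2895 on chromosome 19.

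Detection came first, by the flag with which the scanner software marks a spot as well above background. Of the 11 probes, 9 were well above background on all 4 control and all 4 stressed arrays, and these covered 8 of the 10 genes. Il6 and Il1r1 were well above background on 0 of 8 arrays. The Il6 signal ran from 4.67 to 9.99 and the Il1r1 signal from 3.13 to 7.42, in the arbitrary units of the scanner. On the same arrays the dimmest probe that counted as well above background read between 2.89 and 9.56. That range spans the arrays and is not a limit for each one. Il6 read above the dimmest such probe of its own array on some arrays, control replicate 4 among them, and below it on others, so detection rests on the flag. No stressed minus control difference is given for Il6 or Il1r1, because both groups lay at background.

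**Figure D1:**
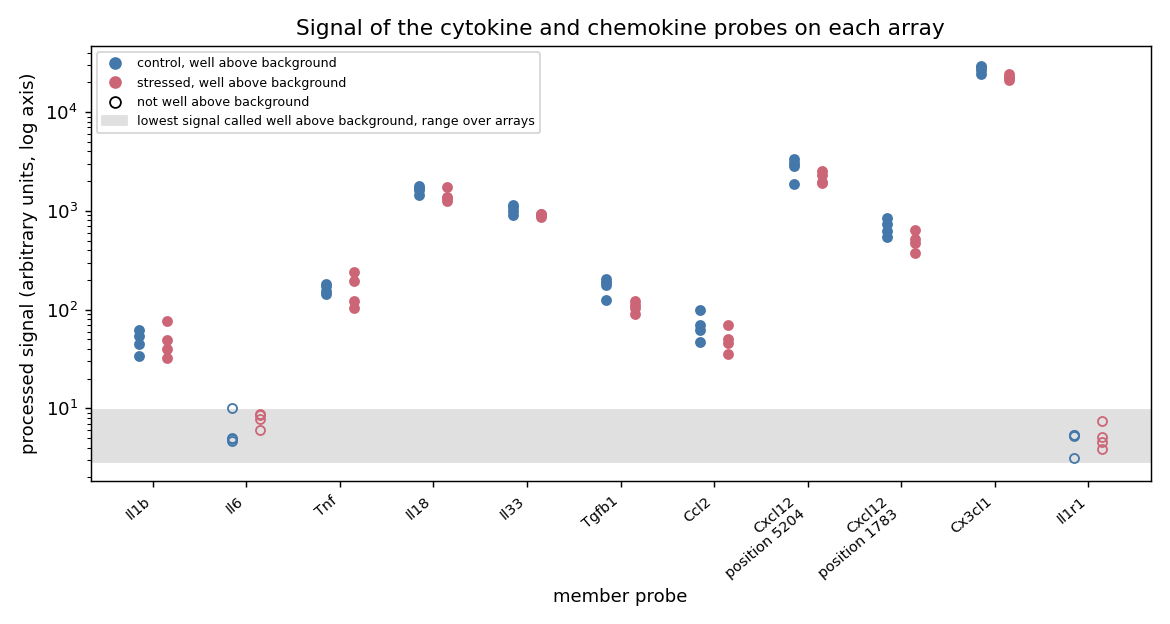
Processed signal (arbitrary units, log axis) of the 11 member probes, 1 point per array, with control in blue and stressed in red. Il6 and Il1r1 (open points) sit inside the grey band from 2.89 to 9.56, apart from 1 control array of Il6 at 9.99, just above it. The band spans the arrays and is not a limit for each one, and the other 9 probes lie above it on every array. Signals of different probes are not comparable with each other.

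The question put to the measured members was whether 10 days of WA stress left their mRNA higher or lower in the cord. The levels below are log2 signals relative to the 75th percentile of the same array, so that negative values mean a signal under that percentile and a difference of 1 means a doubling. Differences are stressed minus control, with limma's moderated standard error and p-values adjusted (Benjamini-Hochberg) over all 23678 tested probes. A probe was called where the adjusted p was under 0.1. The whole cord was measured, so fewer cells of a type and less RNA per cell cannot be told apart.

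1 of the 9 measured member probes was called, that of Tgfb1, against 3.68% of all tested probes (2.83% higher and 0.857% lower in stressed rats). The same probe was the single member at an unadjusted p under 0.05, against 20.3% of all tested probes, and the single member whose groups did not overlap, against 12.1%. Of the 9 probes 4 were higher and 5 lower in stressed rats, with a median difference of -0.07 on the log2 scale, beside 0.07 over all tested probes. Quantile normalization left 1 of the 9 higher and 8 lower, as Il1b, Tnf and Il33 changed sign. With so few members, a count of 1 is not read against these percentages as a difference from other genes.

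Some arrays stood apart. The 5′ minus 3′ measure of an array is the median, over 1874 transcripts with probes far apart, of the signal near the 5′ end against that near the 3′ end, and it moves with RNA integrity and labelling. It was 0.0916 to 0.168 in stressed rats and -0.301, -0.300 and -0.178 in control replicates 1, 3 and 4, but 0.223 in control replicate 2. Without control replicate 2, 42.3% of all tested probes were called. Stressed replicate 3 had the lowest summed level of the lumbosacral position genes Hoxa10 and Hoxd10 (1.45, against 3.52 to 6.11 on the other arrays) and the highest of the red blood cell genes Hbb and Alas2 (39.7, against 16.4 to 32.4). All arrays were on 1 slide, with stressed rats in 1 row and control rats in the other, so slide row and group cannot be told apart.

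Tgfb1 was lower in stressed rats. Its level was -3.57, -3.89, -3.51 and -3.63 in control replicates 1 to 4 and -4.27, -4.06, -3.98 and -4.22 in stressed replicates 1 to 4. Every stressed rat was lower than every control rat, and the control array nearest to them was replicate 2. The means were -3.65 ± 0.168 (SD, n = 4) in control and -4.13 ± 0.135 (SD, n = 4) in stressed rats. The difference of -0.48 on the log2 scale (SE 0.11, 95% interval -0.74 to -0.23), or 1.40-fold lower, had an adjusted p of 0.0860 by limma, and the exact two-sided permutation test over the 70 choices of 4 of 8 arrays gave p = 0.0286, the smallest it can give.

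Tgfb1 stood close to the threshold, at rank 638 of 872 called probes. It was lower in stressed rats under all 19 alternative settings, by 0.25 to 0.64 on the log2 scale, but its adjusted p stayed under 0.1 in 8 of them. Without control replicate 2 the difference was -0.56 with an adjusted p of 0.0038, and without stressed replicate 3 it was -0.53 with an adjusted p of 0.175. With the 5′ minus 3′ measure as a covariate, the difference was -0.30 (SE 0.11) with an adjusted p of 0.158. On that measure the arrays fell into 2 sets, control replicates 1, 3 and 4 and the other 5, so no correlation over the 8 arrays is given. Tgfb1 was higher on each of the former 3 than on each of the latter 5, control replicate 2 included. Microglia are among the sources of TGF-β1, and their 8 marker genes, all well above background on 8 arrays, had 0 calls by limma, a median difference of 0.03 and a summed level of 14.1 to 16.7 over the 8 arrays. Among the marker lists of other cell types 3 genes were called, beside 3.68% of all tested probes (2.83% higher and 0.857% lower). The oligodendrocyte gene Mog (0.90, adjusted p 0.0698), 1 of 6 tested, and the endothelial gene Pecam1 (0.41, adjusted p 0.0885), 1 of 5, were higher. The neuronal gene Eno2 (-0.37, adjusted p 0.0660), 1 of 5, was lower, but its other probe had a difference of -0.03. The other neuronal genes tested, Tubb3, Snap25, Syt1 and Nefl, had differences of 0.15 to 0.58, and the median of the neuronal list was 0.21. The part of these cell types in the member differences was not tested.

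**Figure D2:**
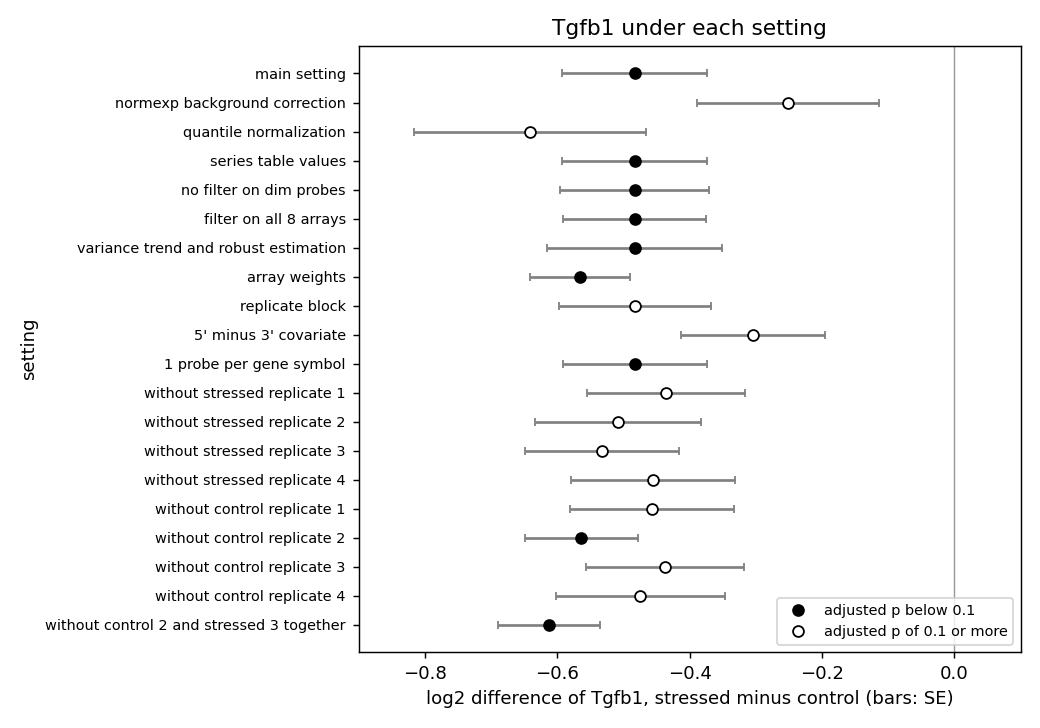
Log2 difference of Tgfb1, stressed minus control, under the main setting and the 19 alternatives, with bars of 1 SE; filled points have an adjusted p under 0.1. All points lie below 0, from -0.64 to -0.25, and 11 of the 19 alternatives are open.

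Around Tgfb1, 16 of the 17 TGF-β ligands, receptors, latency proteins and SMADs listed were tested, with 1 called higher and 1, Tgfb1 itself, called lower, and a median difference of 0.04. At an unadjusted p under 0.05 by limma, 4 were higher and 1 lower. These and the list counts that follow stand beside 2.83% called higher and 0.857% called lower over all tested probes. The counts at an unadjusted p under 0.05 stand beside 20.3% of all tested probes, 3344 higher and 1474 lower. The called gene that was higher in stressed rats was Smad4, the SMAD shared by TGF-β and BMP signalling, with a difference of 0.64 (SE 0.13, adjusted p 0.0730). Smad2, which TGF-β receptors phosphorylate, had a difference of 0.62 that missed the threshold (adjusted p 0.105). With the 5′ minus 3′ covariate the difference was 0.46 (adjusted p 0.132) for Smad4 and 0.28 (adjusted p 0.183) for Smad2. The largest difference of the list, 1.05 for the latency protein Ltbp1, also missed the threshold (adjusted p 0.123). Differences in the signalling receptors were small, at -0.01 (SE 0.14) for Tgfbr1 and 0.02 (SE 0.09) for Tgfbr2, which bind the ligand together. The co-receptors Tgfbr3 and Eng had differences of 0.47 (adjusted p 0.211) and 0.33 (adjusted p 0.555). Smad3 was not well above background on any array.

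**Figure D3:**
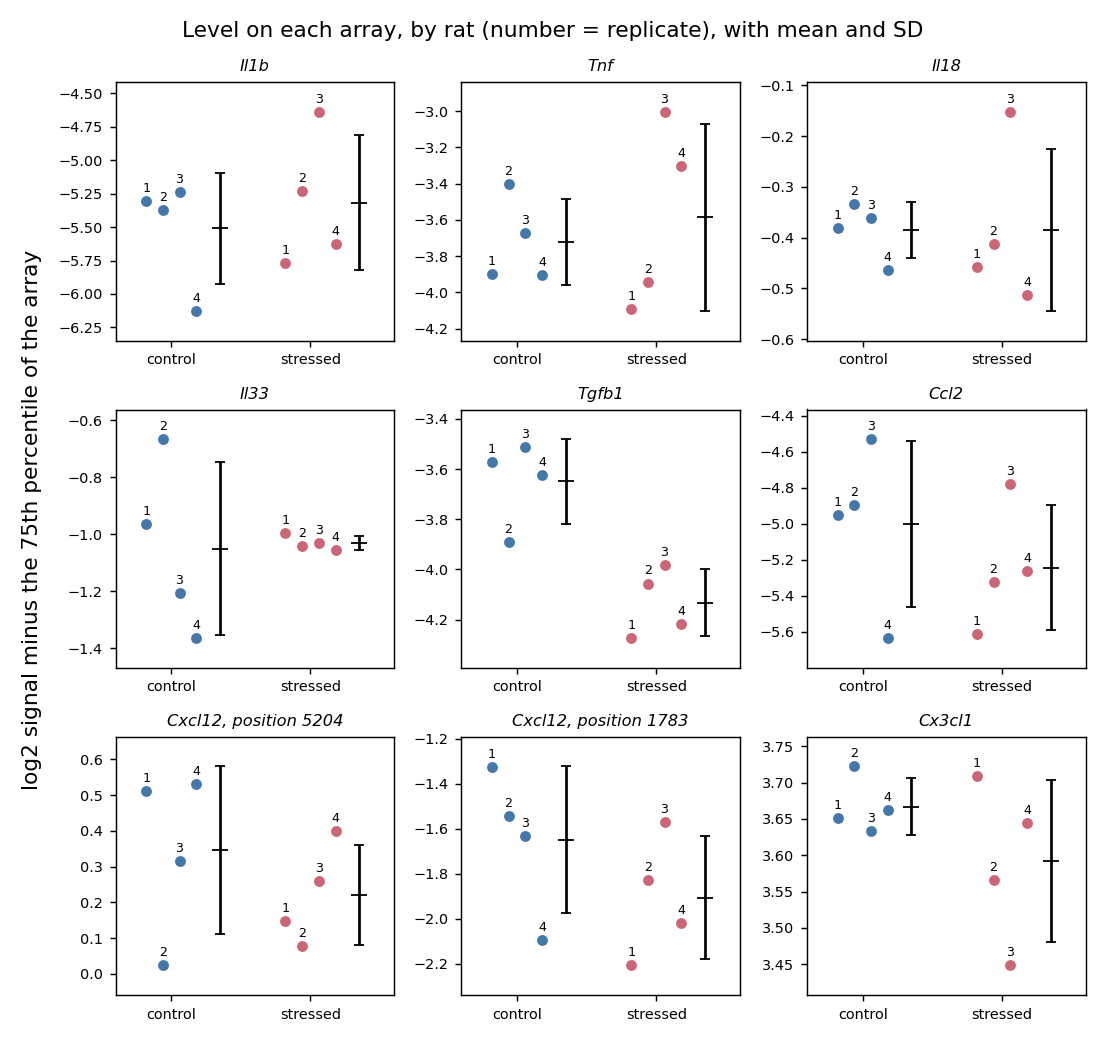
Log2 level of the 9 measured probes, each set against the 75th percentile of its array, 1 point per rat with its replicate number, and the mean with SD (n = 4) beside each group. The Tgfb1 panel is the only one in which the groups do not overlap, and stressed replicate 3 is the highest stressed rat in 6 of the 9 panels.

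Il1b, the prototype inflammatory cytokine of the IL-1 family, was measured at -5.31, -5.37, -5.24 and -6.13 in control and at -5.77, -5.23, -4.64 and -5.63 in stressed rats. Control replicate 4 was far below the other controls and stressed replicate 3 was the highest of all 8 rats, and the groups overlapped. The difference was 0.19 (SE 0.29, 95% interval -0.48 to 0.86, adjusted p 0.717, exact p 0.543). Without stressed replicate 3 the difference was -0.033.

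Il18 was measured at -0.381, -0.334, -0.362 and -0.464 in control and at -0.458, -0.413, -0.153 and -0.513 in stressed rats. Again stressed replicate 3 was the highest, while stressed replicate 4 was the lowest. The difference was 0.00086 (SE 0.093), and its 95% interval of -0.21 to 0.22 leaves room for a change of up to about that size in either direction. Without stressed replicate 3 the difference was -0.076 (adjusted p 0.616).

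Il33 was measured at -0.965, -0.666, -1.20 and -1.36 in control and at -0.996, -1.04, -1.03 and -1.05 in stressed rats. All stressed rats lay inside the control range, and the SD was 0.304 in control and 0.0249 in stressed rats, a contrast that was not tested. Control replicate 2, the highest rat, also had the highest 5′ minus 3′ measure. The difference was 0.020 (SE 0.14, 95% interval -0.31 to 0.35, adjusted p 0.948). It was 0.15 without control replicate 2, -0.085 without control replicate 4 and again 0.020 without stressed replicate 3.

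Il1r1, through which IL-1β signals, was at background, and so were Il1rl1, the receptor of IL-33, and Il18rap, a subunit of the IL-18 receptor, on all 8 arrays. Il1r2, a decoy that binds IL-1 without signalling, passed the background flag on 4 control but on 2 stressed arrays. It counts among the tested genes and was not called, with a difference of -0.61 (adjusted p 0.190). That value is uncertain, as part of the stressed signals lay at background, and it was -0.014 (adjusted p 0.986) with normexp background correction. The shared subunit Il1rap had a difference of -0.06 (SE 0.08) and the IL-18 receptor chain Il18r1 one of 0.29 (adjusted p 0.230). The inhibitors Il1rn, which blocks the IL-1 receptor, and Il18bp, which binds IL-18, had differences of -0.24 (SE 0.25) and -0.09 (SE 0.11), and Casp1, which processes IL-1β and IL-18, one of 0.04 (SE 0.15).

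Of the IL-1 family ligands and inhibitors 8 of 15 listed genes were tested and 0 called by limma, with 1 at an unadjusted p under 0.05. Of the IL-1 family receptors 7 of 10 were tested and 2 called, with 2 higher and 3 lower at an unadjusted p under 0.05. Sigirr, which restrains IL-1 and Toll-like receptor signalling, was lower in stressed rats, with a difference of -0.36 (SE 0.07, adjusted p 0.0676). Il1rapl1, a receptor relative known from synapse formation, was higher by 0.82 (SE 0.19, adjusted p 0.0927), but by 0.32 (adjusted p 0.570) with normexp background correction and by 0.37 (adjusted p 0.106) with the 5′ minus 3′ covariate. Of 11 IL-1 signalling and inflammasome genes tested, 0 were called by limma, with 3 at an unadjusted p under 0.05 (1 higher and 2 lower).

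Tnf was measured at -3.90, -3.40, -3.67 and -3.90 in control and at -4.09, -3.94, -3.01 and -3.30 in stressed rats. Stressed replicates 3 and 4 lay above all control rats and stressed replicates 1 and 2 below all of them, so the stressed group held both the highest and the lowest levels, with an SD of 0.517 against 0.237 in control. The difference was 0.13 (SE 0.25, 95% interval -0.45 to 0.72, adjusted p 0.776, exact p 0.714). Without stressed replicate 3 it was -0.059.

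The TNF receptor Tnfrsf1a, found on most cells, had a difference of -0.04 (SE 0.10). For the second receptor, Tnfrsf1b, the brighter probe had a difference of 0.44 (SE 0.11, adjusted p 0.113) and the other probe one of -0.02 (SE 0.14). Adam17, the protease that releases TNF from the cell surface, had a difference of 0.38 (adjusted p 0.133). Of the IL-6 receptor chains, Il6ra, which binds the ligand, had a difference of 0.10 (SE 0.14) and Il6st (gp130), which signals for the whole IL-6 family, one of -0.41 (SE 0.13, adjusted p 0.149). Of the 10 IL-6 and TNF receptor and signalling genes tested, Ripk1, a kinase below TNF receptor 1, was called lower, with a difference of -0.43 (SE 0.10, adjusted p 0.0896), while its other probe gave -0.06 (SE 0.22). Of the 10, 2 were higher and 3 lower at an unadjusted p under 0.05 by limma. Among the genes named here, groups did not overlap for Il6st, Adam17 and the brighter probes of Tnfrsf1b and Ripk1, beside 12.1% of all tested probes.

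**Figure D4:**
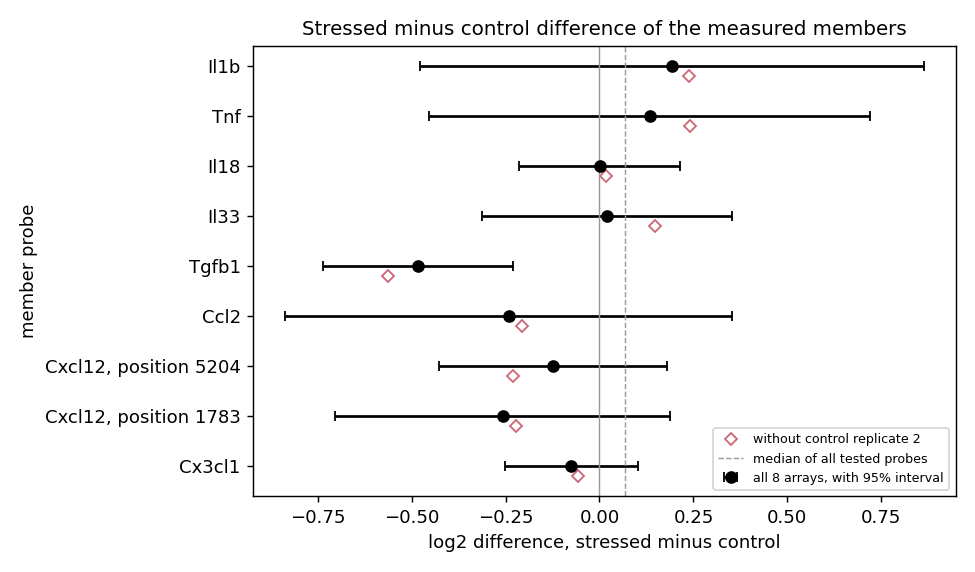
Log2 difference, stressed minus control, of the 9 measured probes with 95% intervals (black), and the difference without control replicate 2 (open red diamonds); the dashed line is the median of all tested probes, 0.07. The interval of Tgfb1 is the only one that leaves out 0, and those of Il18 (-0.21 to 0.22) and Cx3cl1 (-0.25 to 0.10) are the narrowest.

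Ccl2 was measured at -4.95, -4.89, -4.53 and -5.63 in control and at -5.61, -5.33, -4.78 and -5.26 in stressed rats. The control range held all stressed rats. The difference was -0.24 (SE 0.26, 95% interval -0.84 to 0.35, adjusted p 0.604, exact p 0.457). It was -0.45 without control replicate 4 and -0.40 without stressed replicate 3, but -0.084 without control replicate 3, -0.12 without stressed replicate 1 and -0.016 with normexp background correction. Ccr2, the receptor of CCL2 on monocytes, was not well above background on any array.

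The 2 Cxcl12 probes were designed to different transcripts of the gene. The probe at position 5204 read 0.511, 0.025, 0.314 and 0.530 in control and 0.149, 0.079, 0.260 and 0.399 in stressed rats. Control replicate 2 was the lowest of the 8 rats. The difference was -0.12 (SE 0.13, 95% interval -0.43 to 0.18, adjusted p 0.604), which became -0.23 (SE 0.098, adjusted p 0.114) without control replicate 2, -0.14 without stressed replicate 3 and 0.11 (adjusted p 0.646) with the 5′ minus 3′ covariate.

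The Cxcl12 probe at position 1783 read -1.33, -1.54, -1.63 and -2.10 in control and -2.21, -1.83, -1.57 and -2.02 in stressed rats. Control replicate 1 was the highest and stressed replicate 1 the lowest, and the groups overlapped. The difference was -0.26 (SE 0.19, 95% interval -0.70 to 0.19, adjusted p 0.463, exact p 0.286). It was -0.41 (adjusted p 0.353) without control replicate 4 and -0.37 without stressed replicate 3, but -0.15 without control replicate 1 and -0.16 without stressed replicate 1. The 2 probes did not order the rats alike, as control replicate 4 was the highest rat on one and the lowest control rat on the other. For the receptors of CXCL12, Cxcr4 had a difference of 0.18 (SE 0.12) and the scavenging receptor Cxcr7 one of -0.09 (SE 0.12).

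Cx3cl1 was measured at 3.65, 3.72, 3.63 and 3.66 in control and at 3.71, 3.57, 3.45 and 3.64 in stressed rats. Stressed replicates 2 and 3 lay below all control rats and the others within the control range. The difference was -0.07 (SE 0.08, 95% interval -0.25 to 0.10, adjusted p 0.587, exact p 0.229), and without stressed replicate 3 it was -0.027. Its receptor Cx3cr1, the microglial fractalkine receptor, had a difference of 0.02 (SE 0.16).

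Adam10, a membrane protease that releases CX3CL1 from neurons among many other substrates, was called higher in stressed rats. Its brightest probe had a difference of 0.68 (SE 0.11, adjusted p 0.0482), and its other probes had differences of 0.57 (adjusted p 0.238) and 0.83 (adjusted p 0.140). Over all 19 alternatives the difference of the brightest probe was 0.55 to 0.76, called in 12. Dpp4, the protease that cuts CXCL12, was well above background on 1 of 8 arrays.

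Over the 25 direct partners of the members (receptors, decoys, inhibitors and processing enzymes), 19 were tested and 1, Adam10, was called, with 11 differences above and 8 below 0 and a median of 0.02. Of the 23 chemokine ligands tested, members included, 0 were called by limma, with 2 at an unadjusted p under 0.05 (both lower), and the median was -0.07. Of 12 chemokine receptors tested, 0 were called and 0 were at an unadjusted p under 0.05 by limma, and 7 of the 19 on the array were well above background on 0 arrays. Of 29 other cytokines tested 3 were called, with 4 higher and 4 lower at an unadjusted p under 0.05. Il15, which sustains natural killer and memory T cells, was lower, with a difference of -0.38 (SE 0.08, adjusted p 0.0783), Il17d, a member of the IL-17 family, was lower, with one of -0.34 (SE 0.07, adjusted p 0.0814), and Csf3, the granulocyte growth factor G-CSF, was higher by 0.54 (SE 0.13, adjusted p 0.0952).

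Across all lists 117 of 159 genes on the array were tested, and 9 were called, 4 higher and 5 lower, with a median difference of 0.04, beside 3.68% called and a median of 0.07 over all tested probes. At an unadjusted p under 0.05 by limma, 15 were higher and 15 lower, beside 20.3% of all tested probes. Of the 9 called genes, Smad4, Ripk1 and Tgfb1 were called in 8 of 19 alternatives each, Il15, Il17d, Il1rapl1 and Csf3 in 9, Sigirr in 10 and Adam10 in 12, and none of the 9 changed direction in any of them. Leaving out 1 rat at a time moved the count from 9 to between 0 and 37, the latter without control replicate 2, where 42.3% of all tested probes were called.

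Levels of the measured members were set against the summed levels of 10 marker lists and against the 5′ minus 3′ measure. Of these 99 relations over the 8 arrays, 3 had an adjusted permutation p under 0.1 by Pearson's r. The 5 fibroblast genes Col1a1, Col1a2, Dcn, Lum and Col3a1, which mark meninges and vessel walls, were well above background on every array, with a summed level of 1.29 to 3.96 in stressed and 1.32 to 5.64 in control rats. Cxcl12 at position 1783 varied with that level, with Pearson's r = 0.968 (permutation p = 0.000223, adjusted over the 99 relations 0.0172) and Spearman's rho = 0.929 (permutation p = 0.00223, adjusted 0.111). Without the 2 arrays farthest from the median fibroblast level r was 0.932, and after subtraction of each group's mean it was 0.976. For the other Cxcl12 probe, at position 5204, the relation had r = 0.096 (permutation p = 0.817, adjusted 0.914) and rho = 0.048 (permutation p = 0.935). For Ccl2 the same relation had r = 0.816 (permutation p = 0.0168, adjusted 0.300) and rho = 0.786 (permutation p = 0.0279, adjusted 0.346), and for Il1b r = 0.769 (permutation p = 0.0231, adjusted 0.300) and rho = 0.738 (permutation p = 0.0458, adjusted 0.356), so neither passed the adjustment. Without the 2 farthest arrays r was 0.904 for Ccl2 and 0.934 for Il1b.

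Il18 moved with the summed level of the red blood cell genes, with r = 0.924 (permutation p = 0.000347, adjusted 0.0172) and rho = 0.929 (permutation p = 0.00223, adjusted 0.111). Without the 2 farthest arrays r was 0.815. The red blood cell sum was taken on the linear scale, so it was almost all Hbb. The mean log2 level in control rats was 4.49 for Hbb and -2.39 for Alas2. Hbb had another tested probe outside the sum, with a stressed minus control difference of 1.27, against -0.02 for the probe used. Between the groups, the fibroblast list had 0 of 5 and the red blood cell list 0 of 2 tested genes called by limma, and the part of either list in the member differences was not tested. Each group alone has 4 arrays, too few for a correlation of its own.

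**Figure D5:**
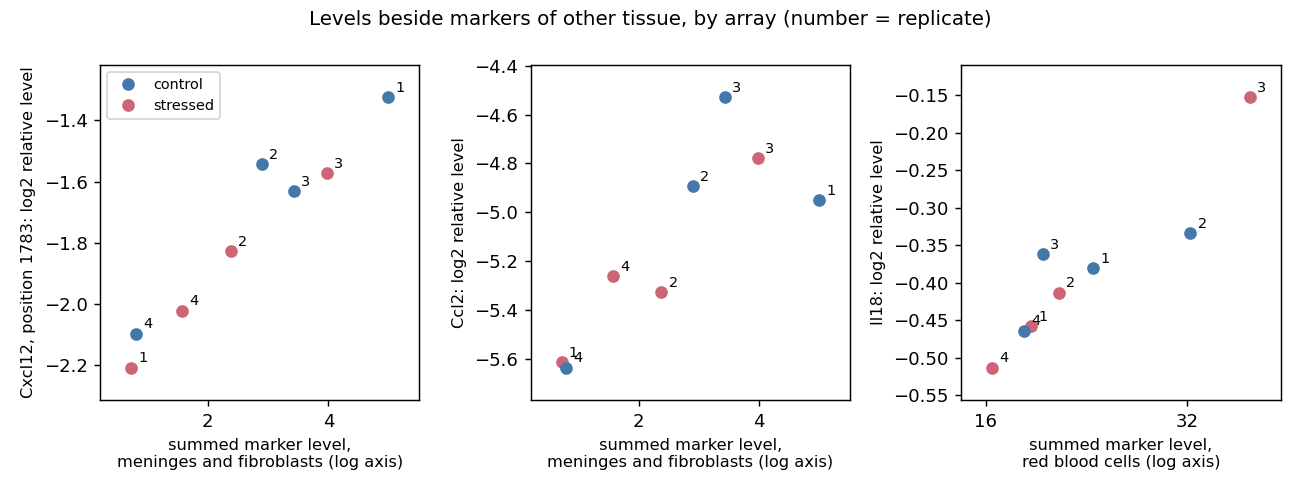
Log2 relative level of Cxcl12 at position 1783, Ccl2 and Il18 against the summed level of markers of meninges and fibroblasts or of red blood cells (log axis), 1 point per array with its replicate number, control in blue and stressed in red. This Cxcl12 probe climbs with the fibroblast level over the 8 arrays (r = 0.968), while the one at position 5204, not shown, has r = 0.096. Stressed replicate 3 has the highest red blood cell level, 39.7, and the highest Il18.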

How the data were processed

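Agilent SurePrint G3 rat arrays, 1 for each of 4 stressed and 4 control rats, measured spinal cord mRNA. The authors deposited the scanner output of Feature Extraction 10.7.3.1, whose processed signal intensity is background-subtracted and in arbitrary units, together with a table of the same intensity values rounded. Their further analysis used dChip, with a normalization that is not given in the sources used here. From the deposited files, control spots (4259) and outlier spots were dropped, spots of a probe were averaged (10 spots for Il1b, Il6, Tgfb1 and Ccl2, 2 for the other members), and log2 of the deposited intensity minus the array's 75th percentile was taken. The 75th percentile was 1739 to 1932 in stressed and 1837 to 2332 in control rats, and between 23005 and 24066 probes of an array passed the background flag. Precision is limited by the number of arrays. A probe was tested if at least 0.5 of its spots were well above background on at least 4 arrays. Groups were compared with limma 3.58.1 (lmFit, eBayes) in R 4.3.3, with Benjamini-Hochberg adjustment over all tested probes, and with exact permutation tests for single values, all two-sided. The p-values measure the spread between these rats, each hybridised 1 time.

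Genes of a list were represented by their brightest tested probe. Named were the 10 members, their direct partners, and list genes called, at most 6 in each direction. Outside that rule, Smad2, Ltbp1 and Il11 were named for the size of differences that were not called. Smad3, Ifng, Il2, Cxcl2 and Cxcl3 were named as not well above background on any array. The members and lists were chosen with earlier results of these data known, so no list is independent evidence, and gene names are those of the array design. Marker lists were summed on the linear scale. The relations with marker lists and the fit without control replicate 2 and stressed replicate 3 together were chosen after seeing the data. The fits were tested on simulated data. Alternatives were normexp background correction (offset 50), quantile normalization, the deposited table, other filters on dim probes, variance trend with robust estimation, array weights, a replicate block, the 5′ minus 3′ covariate (probes at least 300 bases apart), 1 probe per gene and leaving out each rat. Replicate numbers did not pair the rats: same-numbered rats' deviations from their group means correlated at 0.0952, 0.120, -0.0869 and 0.305.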

Additional observations from a re-analysis of the deposited data

Results flagged for a closer look

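Among the 9 measured member probes, 1 of the 18 groups of 4 rats held a rat far from the rest by Dixon's ratio. For Il1b in control rats, the gap between replicate 4, at -6.13, and the next lowest control rat, replicate 2 at -5.37, was 0.849 of the range of the group. Chance alone sets such a mark on about 1 in 20 groups. Without control replicate 4 the Il1b difference was -0.013 (adjusted p 0.987), against 0.19 with it.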

How the results depend on the processing

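Of 170 values of the 9 member probes under alternatives, 142 kept their direction and side of the threshold. The Tgfb1 call, and with it the count of 1 called member, was lost with normexp (-0.25, count 0), quantile normalization (-0.64, 0), the replicate block (-0.48, 0) and the 5′ minus 3′ covariate (-0.30, 0). Leaving out 1 rat gave Tgfb1 -0.56 to -0.44 and counts of 0 to 1, with the call kept only without control replicate 2. Array weights, which set control replicate 2 at 0.107, gave 2 members by adjusted and by unadjusted p, adding Cxcl12 at position 5204 (-0.23, adjusted p 0.0827), and called 50.6% of all tested probes. With normexp 0 members had an unadjusted p under 0.05. The 9 called list genes became 1 with normexp, 22 with no filter on dim probes, 53 with array weights, 0 with the replicate block (limma called 0 of 23678 probes there, with 18.2% at an unadjusted p under 0.05), 0 to 37 without 1 rat and 36 without control replicate 2 and stressed replicate 3 together.

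Differences near 0 changed sign. With quantile normalization Il1b was -0.0069, Il33 -0.013 and Tnf -0.035. With the 5′ minus 3′ covariate Il18 was -0.040, Il33 -0.23, Tnf -0.059 and Cxcl12 at position 5204 0.11. Il18 was -0.010 with array weights and -0.059 without control replicate 2 and stressed replicate 3. Leaving out 1 rat gave Il1b -0.033 to 0.34, Il18 -0.076 to 0.044, Il33 -0.085 to 0.15 and Tnf -0.059 to 0.30. The causes were not tested. The median of all tested probes was 0.07, 0.0024 with quantile normalization and -0.035 with the covariate, and 872 called probes became 231 with normexp, 1166 with quantile normalization, 3257 with no filter, 2315 with the covariate, 11980 with array weights, 0 to 10015 without 1 rat and 9147 without both rats named. The numbers of the replicates do not pair the rats. Signal over background leaves Il6 and Il1r1 without a level. Requiring all spots of a probe to be well above background left 9 member probes on 8 arrays.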

Other observations

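Over the 99 relations of members with marker lists or the 5′ minus 3′ measure, the smallest adjusted permutation p by Spearman's rho was 0.111. By Pearson's r 3 of the 99 passed an adjusted p of 0.1, and 16 had an unadjusted permutation p under 0.05. The relation that passed besides those of Cxcl12 and Il18 was that of Tnf with the motor neuron genes, which ran downward, with r = -0.889 (permutation p = 0.00221, adjusted 0.0728) and rho = -0.810 (permutation p = 0.0218, adjusted 0.346). Without the 2 arrays farthest from the median motor neuron level r was -0.682. The motor neuron sum, taken on the linear scale, was mostly Slc5a7. The mean log2 level in control rats was 0.75 for Slc5a7, -3.48 for Chat and -4.55 for Isl1. Their stressed minus control differences were -0.004, 0.68 and -0.47, in the same order. Stressed replicate 3 had the lowest motor neuron level, 1.39 against 1.59 to 2.27 on the other arrays, and the highest Tnf.

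Within its group, stressed replicate 3 was the highest rat for 6 of the 9 member probes and control replicate 4 the lowest for 6 of 9. The blood leukocyte genes Cd3e, Ms4a1 and Cd2, which mark T and B cells, were well above background on 0 of 8 arrays, and the summed level of the 4 measured leukocyte genes was 0.119 to 0.193 in stressed and 0.133 to 0.161 in control rats.

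Across the lists, 34 of the 159 genes on the array were well above background on 0 of 8 arrays. They included Ifng and Il2, the cytokines of activated T cells, and the neutrophil chemokines Cxcl2 and Cxcl3. Il11, a member of the IL-6 family, had the highest difference of the list genes, 1.18, with an adjusted p of 0.210.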
